A study of Mus musculus with 6 samples.

Results

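The genes described here are 46 genes of DNA replication and of the passage from G1 into S phase, namely the *Mcm*, *Gins*, *Orc* and *Rfc* genes listed below, the replicative polymerases and primase, the enzymes of nucleotide supply, and the G1 cyclins with their kinases and the E2F and retinoblastoma families. The rule names the genes without a threshold on a measured value, but they were chosen with earlier results of these data known. It also sets apart a part of the array that reads dim on the 1G11-mock arrays. They were found on 54 probes and 63 spots among the 36916 genes, 55681 probes and 59305 non-control spots of the array. Here, and in the shares of all genes on the array below, probes without a gene name count as genes under their own identifier. The cells were 1G11, a line of mouse microvascular endothelial cells (strain given as C57BL/6NCrLBR), either mock or overexpressing superoxide dismutase-3 (SOD3), an extracellular enzyme that removes superoxide. Both lines, 1G11-mock and 1G11-SOD3, had spent 6 h in the conditioned medium of N202.1A, a mouse mammary cancer line, so that no group without this medium was measured. RNA of 3 biological replicates per line was labeled with Cy3 and hybridized to 6 single-color Agilent arrays. Each line stands for itself alone, since the 3 replicates of a group repeat 1 cell line and not independently made lines.

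Before S phase, the origin recognition complex, CDC6 and CDT1 load the MCM helicase onto replication origins, a step called licensing. CDC45 and the GINS complex then join the helicase and start it, primase and DNA polymerase α lay down primers, and polymerases δ and ε extend them on the sliding clamp PCNA, which the RFC complex loads. Entry into S phase is governed by cyclin D with CDK4 or CDK6 and cyclin E with CDK2, which phosphorylate the retinoblastoma protein and its relatives and so release the E2F factors that transcribe many of these genes. Endothelial cells in vessels are mostly quiescent, whereas cultured lines cycle.

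E2F proteins bind promoters at sites close to TTTCCCGC, TTTCGCGC, TTTGGCGC or TTTGCCGC, and these 4 motifs of 8 bases were searched on both strands in the 250 bases before each start site of RefSeq (GRCm38.p6). Of the 46 genes, 35 had a promoter in that set, and 10 of the 35 (28.6%) held at least 1 of the motifs, whereas 583 of all 27025 genes did (2.16%). Without the first T, which leaves 7 bases, 14 of the 35 genes (40%) and 9.01% of all genes held a motif. The genes with a motif of 8 bases were *Cdc6*, *Cdk2*, *Gins3*, *Mcm5*, *Mcm6*, *Mcm7*, *Orc1*, *Pola1*, *Rbl1* and *Rfc3*. The windows below end at the base before the start site, are written in the direction of the gene, and have the motifs in capitals. *Mcm5* and *Mcm6* are shown because they held more than 1 motif, part of them overlapping on opposite strands, and *Mcm2* and *Rrm2* because they were higher in 1G11-SOD3 cells in both fits below and held none.
Mcm5, chr8:75109336-75109508, plus strand: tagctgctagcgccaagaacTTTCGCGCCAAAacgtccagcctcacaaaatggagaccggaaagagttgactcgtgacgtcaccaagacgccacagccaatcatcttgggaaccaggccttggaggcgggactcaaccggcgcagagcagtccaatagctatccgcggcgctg
Mcm6, chr1:128359706-128359835, minus strand: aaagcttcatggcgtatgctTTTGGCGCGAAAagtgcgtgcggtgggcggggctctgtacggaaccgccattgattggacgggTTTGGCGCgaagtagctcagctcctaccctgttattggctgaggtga
Mcm2, chr6:88898781-88898900, minus strand: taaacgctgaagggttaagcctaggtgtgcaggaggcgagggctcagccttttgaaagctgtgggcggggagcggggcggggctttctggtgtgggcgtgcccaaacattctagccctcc
Rrm2, chr12:24708134-24708253, plus strand: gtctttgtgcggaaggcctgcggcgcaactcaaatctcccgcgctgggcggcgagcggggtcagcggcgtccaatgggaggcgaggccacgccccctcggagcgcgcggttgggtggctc
A match is a description of the letters only, and its absence says nothing about binding.

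Values depended on where a spot lies. A central rectangle of the array with 6606 non-control spots, here called the middle, read dim on the 1G11-mock arrays, and the difference between the lines fell off gradually toward the edges (map of the difference by place). Therefore 37 genes with a probe outside the middle are described first, and the 10 genes with a spot in the middle apart; *Rfc4* has a probe in each place. For every gene 2 log2 fold changes (1G11-SOD3 minus 1G11-mock) are given, the unadjusted one and one after a position adjustment, in which a smooth trend along rows and columns was subtracted from every array, fitted without the spots of these genes. Among the 10 copies of a probe, the SD of the difference between the lines was 0.454 before and 0.146 after adjustment, over 192 probes. The neighbor median, given beside them, is the median unadjusted log2 fold change of the 100 nearest bright spots of other genes. A gene is said to be called, or to have risen or fallen, where the change exceeded 2-fold and limma gave an adjusted p below 0.05, with Benjamini-Hochberg adjustment over all probes, and it is represented in each place by its brightest probe. All values of single arrays are log2 intensities, and levels of different probes are not compared. On the slide, 1 row of arrays held 1G11-mock and the other 1G11-SOD3 RNA, so that cell line and slide row cannot be told apart.

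**Figure D1:**
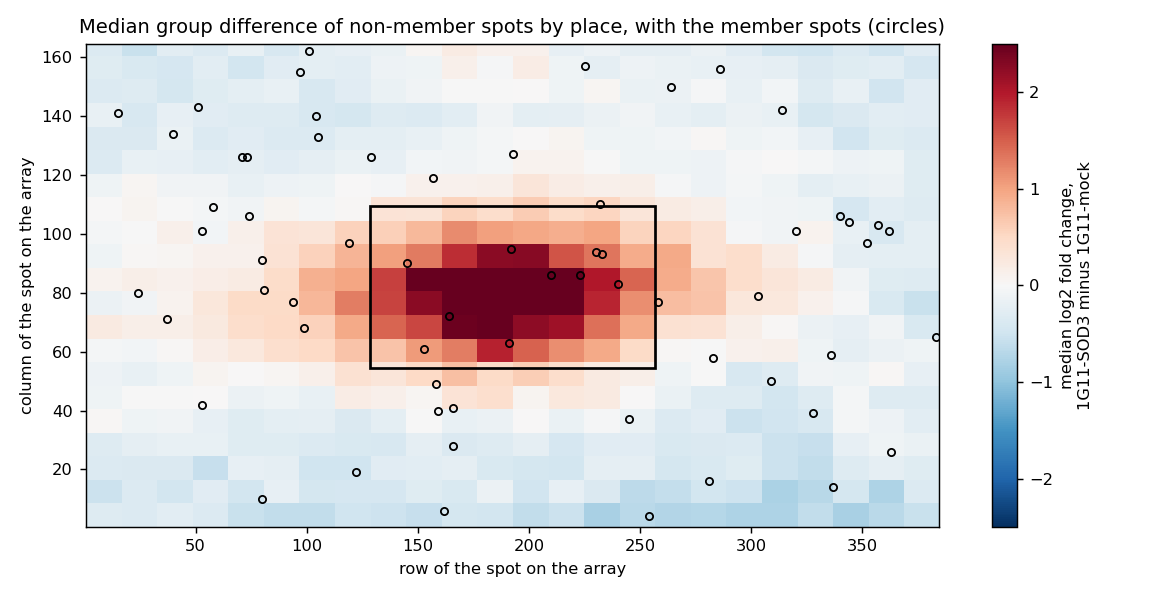
Median log2 fold change (1G11-SOD3 minus 1G11-mock) of single-copy spots of other genes with a mean log2 intensity above 9, in blocks of the array by row and column of spots, with the spots of the 46 genes as circles and the middle as a rectangle. The difference is most positive inside the rectangle and extends beyond it along the rows, and at the member spots in the middle the neighbor median ran from 1.04 to 2.52.

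On the arrays, 34.2% to 43.8% of the non-control spots were well above background and none was saturated. All 6 arrays gave a value for every member probe. *Sod3*, the overexpressed gene, has its probe in the middle. It read 13.61, 12.66 and 9.86 on the 1G11-mock arrays and 16.37, 16.29 and 16.27 on the 1G11-SOD3 arrays, as the labels have it, with a log2 fold change of 4.27 unadjusted and 1.91 after position adjustment, called in both. Of 10 endothelial markers, *Kdr*, *Eng* and *Vwf* were well above background on all arrays outside the middle, whereas *Cdh5* (VE-cadherin), *Emcn*, *Tek* and *Tie1* were so on none. *Pecam1* (-0.51, adjusted -0.39) was so on 2 arrays of each line, and *Cldn5* (-0.03, adjusted -0.16) on 1 1G11-mock array. *Esam*, in the middle, was so on all arrays (1.22, adjusted -0.45). None of these last was called in either fit. *Vwf* fell (-1.65, adjusted -1.51), and the summed level of the 9 endothelial markers outside the middle was 14.29 to 14.84 on the 1G11-mock and 13.63 to 13.89 on the 1G11-SOD3 arrays on the log2 scale. Intensities were summed before taking log2, so that the bright *Eng* and *Kdr* make up most of this sum. *Eng* (-1.05, adjusted -0.70) and *Kdr* (-0.50, adjusted -0.34) were called in neither fit. Of 7 fibroblast and mural markers, *Acta2* (2.62, adjusted 2.63), *Col1a1* (3.10, adjusted 2.14) and *Pdgfrb* (2.39, adjusted 2.30, on 1 of the 3 1G11-mock arrays well above background) rose in both fits, and *Col1a2*, well above background on no 1G11-mock array, was called before position adjustment only. Their summed level was 14.42 to 15.14 and 15.34 to 17.42, respectively, with *Rgs5* well above background on no array. The highest sum came from 1 array, the third of 1G11-SOD3, on which *Dcn* (decorin) read 17.07 against 13.52 and 13.58 on the other two and 14.04 to 14.78 on the 1G11-mock arrays, and the other 1G11-SOD3 sums were 15.34 and 15.58. The part of these markers in the results below was not tested. The summed level of the 5 leukocyte markers was 12.06 to 12.49 and 11.84 to 11.99, and none was called. *Cd14* and *Cd3e* were well above background on all arrays, whereas *Ptprc*, *Adgre1* and *Cd79a* were so on none. Of the epithelial markers, 0 of 7 outside the middle were called, with sums of 10.21 to 10.48 and 10.28 to 10.46, and *Krt14*, in the middle, rose in both fits (4.82, adjusted 1.49).

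Outside the middle, 5 of the 37 genes rose in 1G11-SOD3 compared with 1G11-mock cells (*Mcm4*, *Gins1*, *Mcm2*, *Rrm2* and *Gins4*), by 2.31-fold to 4.20-fold, and 0 fell. Among all 33874 genes outside the middle, 0.841% were called higher and 1.4% lower. With position adjustment 7 of the 37 rose (*Ccne1*, *Gins1*, *Mcm2*, *Mcm4*, *Pole2*, *Mcm3* and *Rrm2*) by 2.08-fold to 2.80-fold, and 0 fell, with 0.8% and 0.877% of all genes called higher and lower. *Gins1*, *Mcm2*, *Mcm4* and *Rrm2* were in both sets. The fold change was above 0 for 31 of the 37 genes (33 after adjustment), compared with 43.4% of all genes, and its median was 0.60 (0.65 after adjustment), compared with -0.06 and 0.0025 over all genes. The members are brighter than most genes, 33 of 37 being well above background on every array. Among the 12445 genes for which this held, 1.38% were called higher and 3.26% lower, 36.2% were above 0 and the median was -0.16; after position adjustment these were 1.28%, 1.9%, 50.1% and 0.0008.

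In 15 of the 37 genes every 1G11-SOD3 array was above every 1G11-mock array, a pattern found in 8.45% of all genes, and in 1 gene (*Rb1*) every one was below, a pattern found in 12.1%. After position adjustment the first count was 23, against 10.7% of all genes, and the groups overlapped for *Rb1*. The difference of a gene exceeded its neighbor median in 33 of the 36 genes with a single spot, by a median of 0.73. How many of all genes exceeded their neighbor median was not counted. The 0 genes called lower stand beside 1 gene with an unadjusted p under 0.05 in that direction (*Rb1*), and 19 had one in the other. The share of all genes at that unadjusted p was not counted, so that these counts have no background beside them. RNA of whole cultures was measured, so that a larger share of cells in S phase and more RNA of these genes per cell cannot be told apart.

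**Figure D2:**
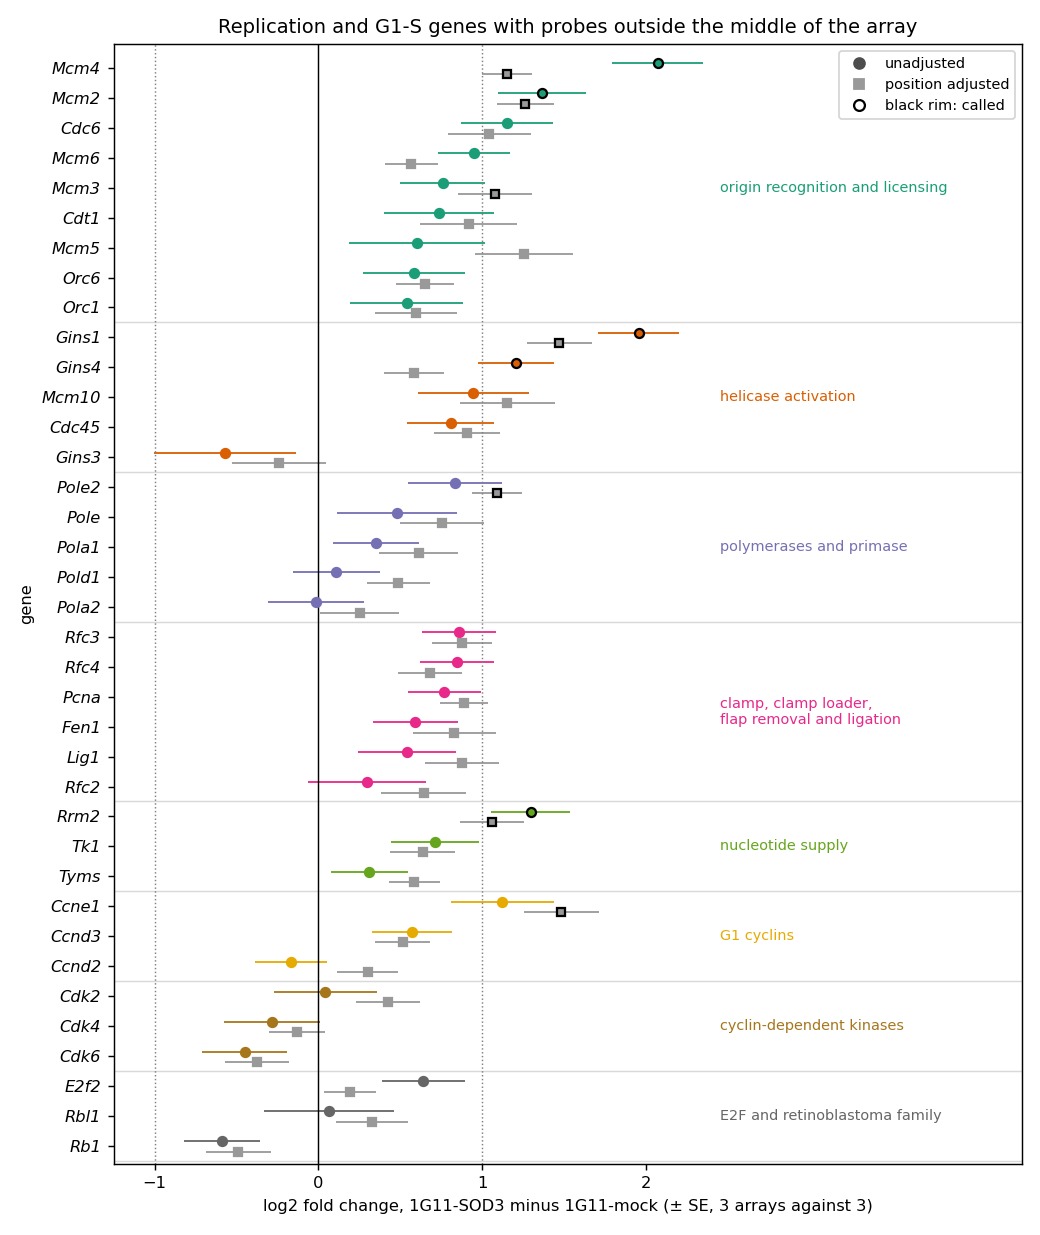
Log2 fold change (1G11-SOD3 minus 1G11-mock, 3 arrays against 3) of the 37 genes with a probe outside the middle, in groups by role, as circles (unadjusted) and grey squares (position adjusted) with bars for the standard error, and with a black rim where called. Dotted lines mark 2-fold. The licensing genes all lie to the right of 0, whereas the kinases and the E2F and retinoblastoma genes lie on both sides of it.

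The 9 licensing genes with a probe outside the middle all had a log2 fold change above 0 in both fits, with a median of 0.76 (1.04 after adjustment), and 2 of them rose (3 after adjustment). *Mcm4*, a subunit of the helicase, read 12.71, 12.71 and 11.90 on the 1G11-mock arrays and 14.77, 14.25 and 14.51 on the 1G11-SOD3 arrays. Every 1G11-SOD3 array lay above every 1G11-mock array. The log2 fold change was 2.07 ± 0.28 (SE, adjusted p = 0.0026), and it was 1.15 ± 0.15 (adjusted p = 0.0038) after position adjustment, the neighbor median being 0.93. *Mcm2*, another subunit, read 11.52, 12.04 and 11.88 in 1G11-mock and 13.16, 13.60 and 12.77 in 1G11-SOD3 cells. Its neighbors were near 0 (0.10), and both fits gave like values, 1.37 ± 0.27 (adjusted p = 0.019) and 1.26 ± 0.17 (adjusted p = 0.0047). *Mcm4* was called with each array left out in turn, whereas *Mcm2* kept its call in 2 of those 6 fits before and in 6 of 6 after position adjustment.

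*Mcm3* read 12.80, 13.00 and 13.52 against 13.70, 14.17 and 13.73, with no overlap. It was called only after position adjustment (1.08 ± 0.22, adjusted p = 0.033, against 0.76 ± 0.26, adjusted p = 0.18), and in 2 of the 6 adjusted fits with an array left out. *Mcm6*, another helicase subunit, was not called and read 15.29, 15.23 and 15.24 against 16.28, 16.38 and 15.94. The lines did not overlap and the difference was just under 2-fold (0.95 ± 0.22, adjusted p = 0.043), and it was 0.57 after adjustment. *Mcm6* was called in 5 of 15 alternative settings with all arrays, over which its value ran from 0.40 to 1.12. For *Mcm5* the third 1G11-mock array was the highest of the 6 (12.58, 12.87 and 14.40 against 14.16, 14.05 and 13.46), and the difference did not pass the test (0.60 ± 0.42, adjusted p = 0.57). Its spot lies near an edge with a neighbor median of -0.64, and position adjustment gave 1.25 ± 0.30 (adjusted p = 0.058) with no overlap between the groups. With the replicate number added as a block, a fit chosen after seeing the data, the adjusted value passed the threshold (adjusted p = 0.048). The pairing behind that block was not borne out after position adjustment. With the 3 other surfaces *Mcm5* was called 0 times (adjusted p = 0.0525 to 0.0854). It was called in 1 of 6 adjusted fits with an array left out and in 1 of 15 alternative settings with all arrays.

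Of the loading factors, *Cdc6* has 2 probes that gave similar values. The brighter one, well above background on 1 of the 3 1G11-mock arrays, read 8.07, 8.05 and 8.63 against 9.71, 9.61 and 8.89, a log2 fold change of 1.15 ± 0.28 that narrowly missed the threshold (adjusted p = 0.052; 1.04 and 0.063 after adjustment). The dimmer one read 7.75, 7.97 and 8.0 against 9.80, 8.97 and 8.48, and was not well above background on any 1G11-mock array. It was estimated at 2.27-fold higher in 1G11-SOD3 cells and did not pass the test (adjusted p = 0.074). After position adjustment it was called (1.11 ± 0.21, adjusted p = 0.023). *Cdt1* (0.74), *Orc6* (0.59) and *Orc1* (0.54, well above background on 1 of the 3 1G11-mock arrays), which belong to the loading step, were above 0 with overlap between the groups and did not pass the test in either fit.

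Of the genes that activate the helicase, *Gins1* and *Gins4* rose before position adjustment, and *Gins1* alone of the 5 outside the middle did so after it. *Gins1*, a subunit of the GINS complex, read 9.92, 10.29 and 9.67 on the 1G11-mock arrays and 11.82, 12.19 and 11.74 on the 1G11-SOD3 arrays, with no overlap. The log2 fold change was 1.96 ± 0.25 (adjusted p = 0.0019) against a neighbor median of 0.60, and 1.47 ± 0.20 (adjusted p = 0.0042) after adjustment. The call held with each array left out, before and after adjustment. *Gins4* read 10.97, 11.32 and 10.80 against 12.22, 12.42 and 12.06, again with no overlap (1.21 ± 0.23, adjusted p = 0.018). Its neighbors were at 0.53 and the adjusted difference was 0.58 ± 0.18 (adjusted p = 0.15), so that its call was lost. *Gins3* went the other way from these in value, with 12.97, 13.55 and 14.96 against 12.78, 13.38 and 13.61, but the groups overlapped and it did not pass the test (-0.57 ± 0.43, adjusted p = 0.61; -0.24 after adjustment). *Mcm10* (0.95, adjusted 1.15), which takes part in starting the helicase, and *Cdc45* (0.81, adjusted 0.91), a component of the active helicase that was well above background on 1 of the 3 1G11-mock arrays, were not called, although *Cdc45* had an adjusted p of 0.043 after position adjustment.

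Of the 5 polymerase subunits outside the middle, none was called before position adjustment and *Pole2* was called after it, the medians being 0.35 and 0.61. *Pole2*, the second subunit of DNA polymerase ε, read 9.28, 9.33 and 9.68 against 9.66, 10.42 and 10.71, with a slight overlap of the first 1G11-SOD3 and the third 1G11-mock array. Its log2 fold change was 0.84 ± 0.29 (adjusted p = 0.18) before and 1.09 ± 0.15 (adjusted p = 0.0052) after adjustment, when the groups no longer overlapped, and the adjusted call held with each array left out. *Pold1*, the catalytic subunit of polymerase δ, read 12.95, 13.23 and 13.79 against 13.62, 13.49 and 13.18. The groups overlapped fully (0.11 ± 0.27, adjusted p = 0.90; 0.49 after adjustment). *Pole* (0.48), *Pola1* (0.35) and *Pola2* (-0.01), the catalytic subunits of polymerases ε and α and the second subunit of α, were not called in either fit, and a second, dim probe of *Pole* was well above background on no array.

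The clamp, its loader and the enzymes that join Okazaki fragments were all above 0 outside the middle, by 0.30 to 0.86 (0.64 to 0.89 after adjustment), and 0 of the 6 were called. *Pcna*, the sliding clamp, read 14.37, 14.48 and 14.22 on the 1G11-mock and 15.15, 15.32 and 14.91 on the 1G11-SOD3 arrays. These did not overlap, and the difference was under 2-fold (0.77 ± 0.22, adjusted p = 0.10; 0.89 ± 0.15, adjusted p = 0.011 after adjustment). *Rfc3* was similar (0.86 ± 0.22, adjusted p = 0.070; 0.88 ± 0.18, adjusted p = 0.032 after adjustment). *Fen1* (0.59, adjusted 0.83), the flap endonuclease, *Lig1* (0.54, adjusted 0.88), the ligase, and *Rfc2* (0.30, adjusted 0.64) had overlapping groups before adjustment.

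Among the enzymes of nucleotide supply, *Rrm2*, the small subunit of ribonucleotide reductase, rose in both fits. It read 12.39, 12.52 and 12.63 against 14.15, 13.79 and 13.47, with tight 1G11-mock arrays and no overlap, and a log2 fold change of 1.30 ± 0.24 (adjusted p = 0.015; 1.06 ± 0.20, adjusted p = 0.019 after adjustment). The call was kept in 3 of the 6 fits with an array left out, and in 2 of 6 after adjustment. *Tk1*, thymidine kinase, read 13.86, 13.82 and 14.45 against 14.36, 14.90 and 15.00. Only the third 1G11-mock array reached into the range of the other line, and the difference did not pass the test (0.71 ± 0.27, adjusted p = 0.23). *Tyms*, thymidylate synthase, gave 0.31 ± 0.24 (adjusted p = 0.61).

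**Figure D3:**
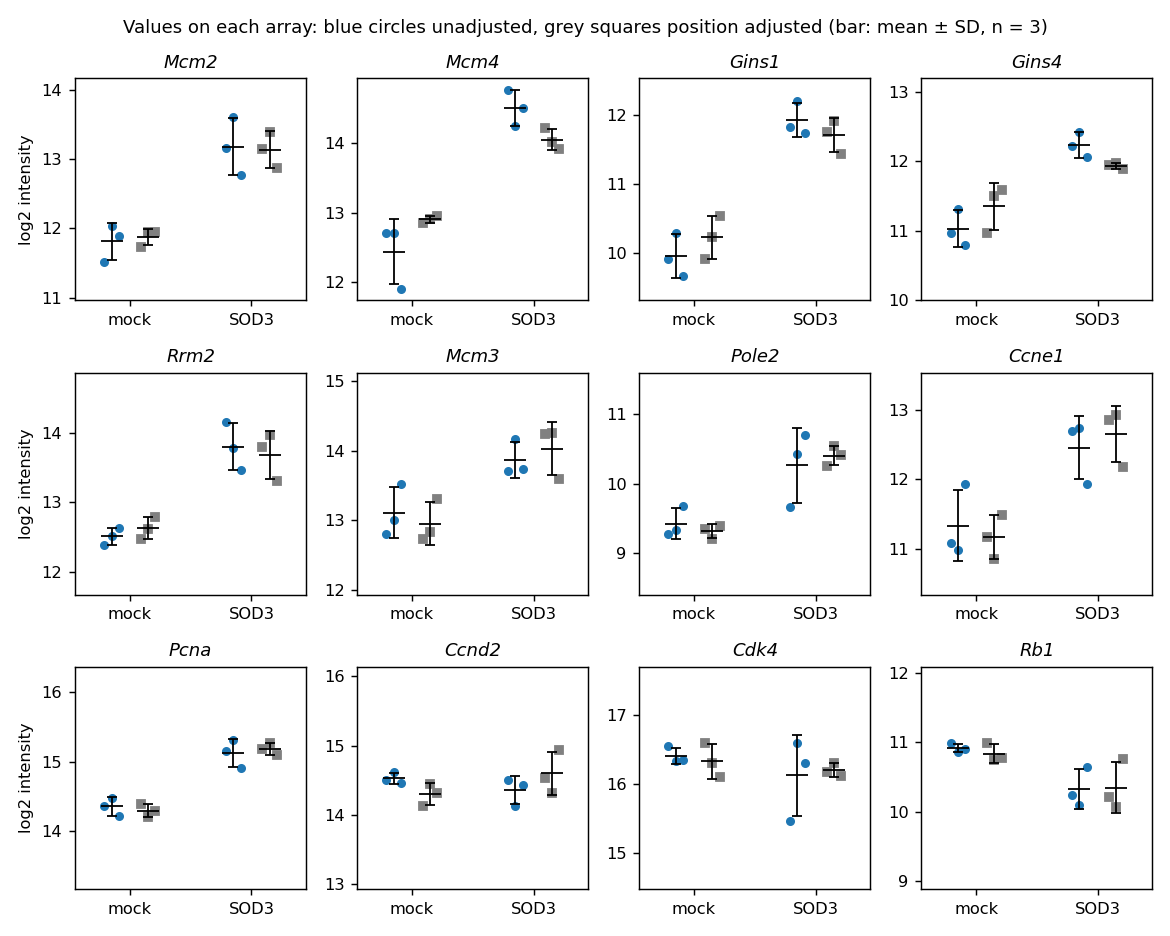
Log2 intensity of 12 genes on each of the 3 1G11-mock and 3 1G11-SOD3 arrays, unadjusted (blue circles) and position adjusted (grey squares), with bars for the mean and SD; every panel spans the same range of log2 units. The arrays of the 2 lines do not overlap for *Mcm2*, *Mcm4*, *Gins1*, *Gins4*, *Rrm2*, *Mcm3*, *Ccne1*, *Pcna* and *Rb1* before adjustment, whereas they do for *Pole2*, *Ccnd2* and *Cdk4*.

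The regulators of entry into S phase outside the middle were mixed, and none was called by its brightest probe before position adjustment. *Ccne1*, cyclin E1, read 11.09, 10.99 and 11.93 in 1G11-mock and 12.70, 12.74 and 11.93 in 1G11-SOD3 cells, so that the third arrays of both lines lay side by side. Its difference of 1.12 ± 0.31 did not pass the test (adjusted p = 0.092), and with a neighbor median of -0.35 the adjusted value was 1.48 ± 0.23 (adjusted p = 0.0086), the highest among the 37 genes. That call was kept in 5 of 6 fits with an array left out. A second, dim *Ccne1* probe, well above background on no 1G11-mock array, read 6.90, 7.0 and 6.97 against 8.20, 7.95 and 7.94. It was called before adjustment, at least 1.85-fold higher (adjusted p = 0.020), and it came to 0.78 after adjustment.

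*Ccnd2*, cyclin D2, read 14.51, 14.62 and 14.46 against 14.51, 14.13 and 14.44. The lines overlapped (-0.17 ± 0.22, adjusted p = 0.79; 0.30 after adjustment). *Ccnd3* gave 0.57 ± 0.25 (adjusted p = 0.31) by its brighter and 0.04 by its other probe. *Cdk4*, the kinase of the D cyclins, read 16.54, 16.32 and 16.35 against 15.47, 16.59 and 16.31. Its 3 probes gave -0.28, -0.51 and 0.64 before position adjustment, following their neighbor medians of -0.14, -0.47 and 0.59 in order, and -0.13, -0.06 and 0.02 after it. None of these passed the test. *Cdk6* (-0.45, adjusted -0.38, well above background on 2 of the 3 1G11-mock arrays) and *Cdk2* (0.04, adjusted 0.42) were not called either.

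*Rb1*, the retinoblastoma gene, is the one gene of the 46 printed 10 times, all outside the middle. Averaged over the copies it read 10.98, 10.86 and 10.90 on the 1G11-mock and 10.24, 10.09 and 10.64 on the 1G11-SOD3 arrays, with no overlap. After position adjustment the groups overlapped, the third 1G11-SOD3 array (10.76) lying above the second 1G11-mock array (10.75). The difference did not pass the test (-0.59 ± 0.23, adjusted p = 0.25; -0.49, adjusted p = 0.29 after adjustment), and the single copies ranged from -0.93 to -0.24. The copies are spots of 1 probe on the same arrays and not replicates. *E2f2* read 11.68, 12.23 and 11.40 against 12.44, 12.38 and 12.42, and its 0.64 ± 0.25 (adjusted p = 0.26) became 0.19 after adjustment, with neighbors at 0.40. *Rbl1*, the retinoblastoma relative p107, gave 0.07 ± 0.40 (adjusted p = 0.96).

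In the middle of the array, where the 1G11-mock arrays read dim for most genes, 9 of 10 genes were called higher before position adjustment. That count is to be read against the background, since 12.4% of all 6002 genes there, and 24.4% of those well above background on every array, were called higher and the neighbor medians of these spots were 1.04 to 2.52. In 9 of the 10 every 1G11-SOD3 array lay above every 1G11-mock array (8 after adjustment), against 28.5% and 12.4% of all genes there, and 0 were called lower, against 0.0666%. After position adjustment 4 of the 10 rose (*Gins2*, *Rfc5*, *E2f1* and *Rfc4*), with 1.52% of the genes in the middle (2.8% of those well above background on every array) called higher and 1.1% lower. The median over the 10 was 2.63 before and 0.89 after, compared with 0.19 and -0.02 over all genes in the middle. Of the 10 genes, 7 were well above background on every array, and over all 1178 such genes in the middle the medians were 1.02 and 0.0083. *Gins2*, the GINS subunit that was not among those above, read 8.94, 8.77 and 7.88 in 1G11-mock and 12.31, 11.50 and 11.84 in 1G11-SOD3 cells, and the lines differed by 3.35 ± 0.32 on the log2 scale (adjusted p = 0.00038), beside neighbors at 2.06. It was well above background on 2 of the 3 1G11-mock arrays, as was the *Rfc4* probe of the middle. Its position-adjusted arrays, 9.34, 9.66 and 9.96 against 11.33, 10.84 and 10.74, still did not overlap (1.32 ± 0.21, adjusted p = 0.0099).

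*E2f1*, the E2F factor most closely tied to S phase entry, read 9.90, 9.63 and 8.54 against 12.31, 11.92 and 11.75. The adjusted values were 10.18, 10.13 and 10.15 against 11.58, 11.45 and 10.90, so that the spread of the 1G11-mock arrays closed while the lines stayed apart (2.64 ± 0.34, adjusted p = 0.0021, became 1.15 ± 0.19, adjusted p = 0.011). In fits with an array left out it was called 6 of 6 times before and 3 of 6 times after adjustment. *Rfc5*, of the clamp loader, read 11.12, 11.46 and 9.21 against 13.50, 13.23 and 13.15 and went from 2.69 ± 0.47 (adjusted p = 0.011) to 1.16 ± 0.17 (adjusted p = 0.0059). *Rfc4* offers a comparison of places. Its probe in the middle read 8.64, 8.84 and 7.98 against 11.16, 11.03 and 11.40 and was called (2.71 ± 0.27, adjusted p = 0.00039), whereas its probe outside read 12.72, 12.88 and 12.90 against 13.94, 13.66 and 13.43 and was not (0.85 ± 0.23, adjusted p = 0.077). After position adjustment the 2 probes came closer, to 1.11 ± 0.18 (adjusted p = 0.0095) and 0.68 ± 0.19 (adjusted p = 0.11), on the same side of 0.

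**Figure D4:**
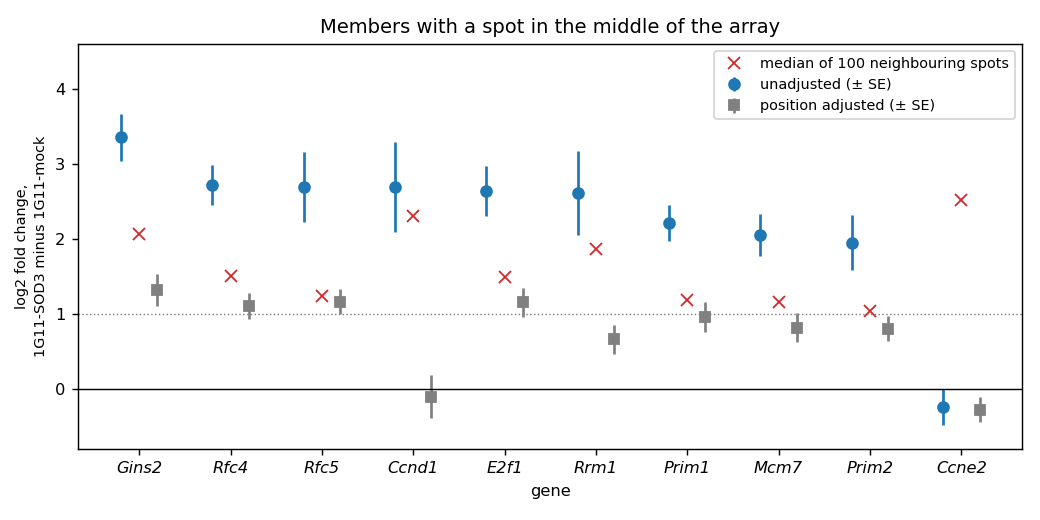
Log2 fold change (1G11-SOD3 minus 1G11-mock) of the 10 genes with a spot in the middle of the array, unadjusted (blue circles, ± SE), as the median of their 100 nearest bright spots (red crosses), and position adjusted (grey squares, ± SE). The unadjusted values of 9 genes lie above those of their neighbors, and *Ccnd1* falls from 2.69 to -0.10 on adjustment. The share of all genes in the middle above their neighbors was not counted.

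The other called genes of the middle lost the call on adjustment. *Mcm7*, the helicase subunit that was missing above, read 12.98, 13.53 and 12.53 against 15.27, 14.96 and 14.96 and went from 2.05 ± 0.28 (adjusted p = 0.0027) to 0.82 ± 0.19 (adjusted p = 0.051). *Prim1*, the small subunit of primase, read 11.19, 11.62 and 10.94 against 13.47, 13.50 and 13.44 and went from 2.22 ± 0.24 (adjusted p = 0.00072) to 0.96 ± 0.20, just under 2-fold (adjusted p = 0.036). *Prim2*, the large subunit, read 10.75, 10.14 and 9.08 against 12.24, 11.76 and 11.82, and its difference of 1.95 ± 0.37 (adjusted p = 0.016) became 0.80 ± 0.16 (adjusted p = 0.030). *Rrm1*, the large subunit of ribonucleotide reductase, read 12.22, 11.44 and 9.52 against 14.16, 13.06 and 13.80, the third 1G11-mock array being lowest in this gene as in the others of the middle named so far. It went from 2.61 ± 0.56 (adjusted p = 0.028) to 0.66 ± 0.19 (adjusted p = 0.12). The adjusted arrays of all 4 genes were still without overlap between the lines.

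*Ccnd1*, cyclin D1, was the exception. It read 13.79, 11.20 and 10.93 in 1G11-mock and 15.20, 14.32 and 14.48 in 1G11-SOD3 cells, which gives 2.69 ± 0.60 on the log2 scale (adjusted p = 0.035). The neighbor median of 2.30 was nearly as large, and the adjusted arrays overlapped, with 13.59, 12.69 and 13.82 against 13.64, 13.19 and 12.96 (-0.10 ± 0.28, adjusted p = 0.93). *Ccne2*, cyclin E2, was well above background on no array (6.72 to 7.40 over all 6), so that its -0.24 gives no measure of the gene.

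The genes were also counted by call and promoter motif. Of the genes called before position adjustment in either place, 8 had a promoter in the RefSeq set, of which 1 (*Mcm7*) held a motif of 8 bases and 4 held one of 7 bases, and of the other 27 genes with a promoter 9 and 10 did. Of the genes called after position adjustment, 8 had a promoter, of which 0 and 1 held a motif, whereas 10 and 13 of the other 27 did. These counts move with single calls and leave out called genes without a promoter in that set. Such genes were *Gins1*, *Gins2* and *Mcm4*, called in both fits, and *Gins4*, *Prim2* and *Ccnd1*, called before adjustment only. *Mcm5* and *Mcm6*, each with more than 1 motif, were called in neither fit but were called under some of the alternative settings.

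Of 52 further genes of replication and the G1 to S transition, 46 had a probe outside the middle, with a median of 0.20. Beside shares of 1.4% lower and 0.841% higher among all genes outside the middle, 0 of the 46 fell and 4 rose. These were *Recql4* (1.95 ± 0.23, adjusted p = 0.0013), a helicase needed to start replication, *Timeless* (1.76 ± 0.29, adjusted p = 0.0076), which protects the fork, *Fbxo5* (1.54 ± 0.25, adjusted p = 0.0064), an inhibitor of the anaphase-promoting complex, and *Chaf1b* (1.37 ± 0.31, adjusted p = 0.038), a subunit of chromatin assembly factor. After position adjustment *Recql4* (1.25, adjusted p = 0.0055) and *Timeless* (1.07, adjusted p = 0.029) were again called, with *Asf1b*, a histone chaperone named after its value was seen, as the third (1.09, adjusted p = 0.047), while *Fbxo5* (0.69) and *Chaf1b* (0.97) were not, and the median was 0.46. With an array left out, *Recql4* kept its call in 6 of 6 fits before and after adjustment, *Timeless* in 6 and 2, *Fbxo5* in 6 of 6 before adjustment, and *Chaf1b* in 2 of 6. Of the 6 genes of this list in the middle only, 5 were called before and 0 after adjustment. Among all genes in the middle, 12.4% were called higher before and 1.52% after it.

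Of 6 inhibitors of the cyclin-dependent kinases with a probe outside the middle, 2 fell, against 1.4% of all genes there. *Cdkn2a*, which encodes p16INK4A and p19ARF, fell by 4.03 on the log2 scale (SE 0.25, adjusted p = 7.4e-05; a log2 fold change of -3.67 after adjustment), and *Cdkn1a*, which encodes the CDK inhibitor p21, fell by 2.20 (SE 0.32, adjusted p = 0.0040; -2.12 after adjustment). Both were called in all 14 alternative settings and with each array left out. *Cdkn2a* read 13.31, 13.30 and 12.61 on the 1G11-mock and 9.04, 9.11 and 8.99 on the 1G11-SOD3 arrays, and *Cdkn1a* 14.52, 14.68 and 14.52 on the 1G11-mock and 12.72, 12.85 and 11.56 on the 1G11-SOD3 arrays. Of the other 4 outside the middle, 0 were called (-0.32 to 0.32), *Cdkn1c* being well above background on no array, and *Cdkn2c*, in the middle, went from 3.04 to 0.52 (adjusted p = 0.26). Of 24 genes of mitosis, 22 had a probe outside the middle, with a median of 0.35 (0.47 after adjustment) and 18 of 22 above 0 (19 after adjustment). Only *Cdk1*, the mitotic kinase, was called (1.25 ± 0.30, adjusted p = 0.049), and not after adjustment (0.86, adjusted p = 0.14). That call was kept in 1 of 6 fits with an array left out and in 8 of 14 alternative settings. The 2 mitosis genes in the middle, where 12.4% of all genes were called higher before adjustment, were called before and not after it.

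**Figure D5:**
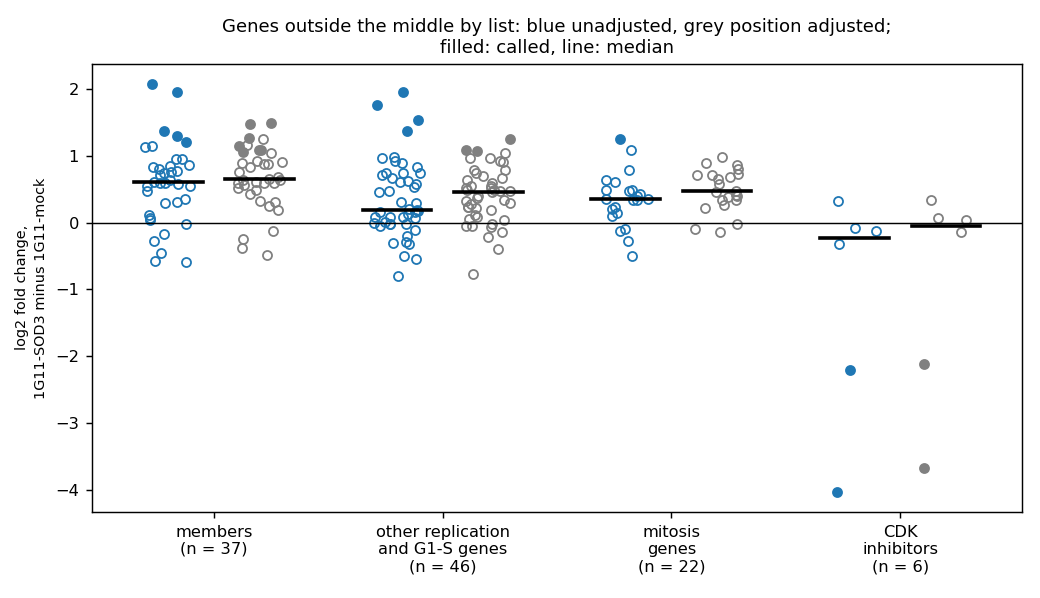
Log2 fold change (1G11-SOD3 minus 1G11-mock) of each gene with a probe outside the middle in 4 lists, unadjusted (blue) and position adjusted (grey), with filled points where called and a line at the median. The median was 0.60 (0.65 adjusted) for the 37 genes described here, 0.20 (0.46) for the other replication and G1-S genes, 0.35 (0.47) for the mitosis genes and -0.23 (-0.05) for the CDK inhibitors, of which *Cdkn2a* and *Cdkn1a* lie far below the rest.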

How the data were processed

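RNA of 3 1G11-mock and 3 1G11-SOD3 cultures was measured on 6 arrays. The authors deposited scanner intensities of each spot and its local background (Agilent Feature Extraction 10.7.3.1), not normalized between arrays, and log2 values from their own normexp background correction and quantile normalization, used here as an alternative. From the intensities, mean signals were corrected with normexp (local background, offset of 50), taken to log2, freed of control and outlier spots and quantile normalized. Copies of a probe were averaged apart inside and outside the middle. Lines were compared with limma 3.58.1 (R 4.3.3; empirical Bayes, Benjamini-Hochberg). Plots were drawn in matplotlib 3.10.9 and tables made in pandas 2.3.3 and numpy 2.4.6 (Python 3.11.15).

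The position adjustment removed, in 5 intensity classes, a Gaussian-weighted surface (SD of 6 spots) of the deviation of each array from the mean of all 6, with member spots and probes printed 10 times held out. Names came from the design accession for 27656 probes and from the description for 995. The other 27030 probes had no gene name and were counted as genes under the identifier of the array design. Probe coordinates are of an unnamed build and are not given. In simulated data with independent noise and no effect of place, the fit called 163 of 200 changes in the simulated direction, and 3 unchanged values. That simulation does not cover the dim middle. Its changes were placed in bright probes only and were larger than most differences of the members. The count therefore gives no rate of detection for smaller changes. With 3 arrays per line an exact permutation test of a single gene cannot go below p = 0.1. Replicate numbers of the labels, which are also the slide columns, paired the samples (correlation of deviations from the group means of 0.17, 0.10 and 0.16 for the same number over 16354 bright values, a probe in 1 place each); after position adjustment these were 0.067, 0.13 and 0.25, with 0.17 for 1G11-mock replicate 2 and 1G11-SOD3 replicate 1, so that the pairing was not borne out there. Alternatives were other background, scaling, filter, probe and block choices, the deposited table and each array left out; other surfaces, and arrays left out or blocked after position adjustment, were chosen after seeing the data.

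The genes and lists were chosen with earlier results of these data known. Arrays are given for members called in either fit, for 1 bright uncalled member per role and for *Rfc4*; genes of other lists are named if called by a probe outside the middle, and marker genes as checks of the tissue. No sample column was left unused.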

Additional observations from a re-analysis of the deposited data

How the results depend on the processing

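The numbers of called genes depended on the setting, whereas no member outside the middle was called lower under any. Outside the middle, 5 genes were called higher in the main setting, 10 with the scanner's processed signal at a common 75th percentile (where the median of all genes outside moved from -0.06 to -0.43; it was -0.32 under scaling to the 75th percentile alone), 8 with the middle left out before normalization, and 5 to 7 under the other planned settings with all arrays. With an array left out it was 2 (without 1G11-SOD3 replicate 1 or 2) to 6, and 3 without 1G11-mock replicate 2; their median ran from 0.53 to 0.88, the highest without 1G11-mock replicate 3. After position adjustment the corresponding counts were 4 to 13, 13 without 1G11-mock replicate 3 and 11 without 1G11-SOD3 replicate 3, with medians of 0.59 to 0.87. Surfaces of width 4 and 12 and one from bright spots gave 8, 6 and 8. *Gins1*, *Mcm4* and *Mcm2* were called in all 15 planned settings with all arrays, *Rrm2* in 14 and *Gins4* in 13. The replicate block, which pairs arrays of one number, left the counts at 5 outside and 9 in the middle and changed no call of a member, and with position adjustment it gave 8 (*Mcm5* in addition) and 4. Among all genes outside, 37.5% of calls were upward in the main setting, 10.8% with the processed signal, 55.9% without the middle, 47.7% after position adjustment and 62.7% with the surface from bright spots.

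In the middle, 9 genes were called higher in the main setting, 5 to 9 with an array left out (5 without 1G11-SOD3 replicate 3), 4 after position adjustment, 2 to 5 when an array was then left out, and 5, 4 and 3 with the other surfaces. *Ccne2*, at background, was the 1 gene called lower, with the processed signal and with the surface from bright spots. *Ccnd1* turned from 2.69 to -0.10 after position adjustment, with or without the replicate block, to -0.27 with a width of 4, and to -0.44, -0.29 and -0.069 in adjusted fits without 1G11-mock replicate 2 and 1G11-SOD3 replicates 1 and 2; it stayed above 0 in the other adjusted fits. Signal over background limits *Ccne2* and the dim probes of *Ccne1*, *Cdc6* and *Pole*, and the cause of each shift was not tested.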
